A study of Rattus norvegicus with 241 samples.

Results

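Capillary and arterial endothelium of the rat mammary gland was examined in 9 whole-gland single-cell RNA-seq libraries, 1 per rat. A cell belonged to it when it held at least 3 unique molecular identifiers (UMIs, counted RNA molecules) summed over the pan-endothelial genes CDH5 and EGFL7, at most 1 UMI summed over PTPRC, PROX1, COL3A1 and KRT14, and no UMI of the venular selectins SELP and SELE. PECAM1 and ACKR1, which the rule also names, were not used here. The rule found 2976 of 103524 cells, or 2.87%. The whole series has 241 samples. Members were thus chosen by their measured RNA, and the levels of the rule's own genes are no finding. Gene symbols are written in capitals throughout.

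All 9 donors were young virgin rats of the outbred SD strain, and their unsorted glands were taken on day 0, when dosing stopped. The 6 TGFBRi rats (numbers 1, 2, 4, 6, 11 and 14) had received LY2157299, which blocks the kinase of the type I TGFβ receptor, at 75 mg/kg by oral gavage in 2 doses a day for 10 days. The 3 vehicle rats (numbers 1, 2 and 4) had been gavaged with the carrier on the same schedule. The inhibitor was given to the whole animal, so the data do not separate a direct action on endothelium from an action through other tissues.

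Capillary endothelium lines the smallest vessels and moves fatty acids, water and hormones between blood and tissue. In fat-rich tissue such as the mammary gland it carries GPIHBP1, the anchor of lipoprotein lipase, and the fatty acid binding protein FABP4. Arterial endothelium upstream of it expresses connexins, SOX17 and genes of the Notch pathway. TGFβ binds TGFBR2, which recruits the kinase TGFBR1 and so activates SMAD2 and SMAD3. Endothelium has in addition the type I receptor ACVRL1 (ALK1) with the co-receptor ENG, which act through SMAD1 and SMAD5 and induce the ID genes.

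The vehicle rats differed among themselves. Over 5793 genes, the member sums of vehicle rats 1 and 2 correlated at r = 0.979 with each other and at 0.859 to 0.903 with the others, while the others correlated among themselves at 0.910 to 0.980. The first principal component held 49.6% of the variance and had scores of -0.629 and -0.575 in these 2 rats, -0.048 in vehicle rat 4 and 0.129 to 0.255 in TGFBRi rats. Vehicle rat 4 correlated with the TGFBRi rats at 0.910 to 0.943, and the TGFBRi rats with each other at 0.941 to 0.980. The second component (14.4%) was led by vehicle rat 4, at 0.897. In venular cells vehicle rat 4 correlated with the TGFBRi rats at 0.852 to 0.876, and vehicle rats 1 and 2 with them at 0.866 to 0.899. Outside blood endothelium these ranges were 0.931 to 0.960 and 0.958 to 0.972. Vehicle rat 4 was thus the more distant there, though the ranges overlapped. The libraries held 43110875 to 92699378 UMIs, of which 551036 to 3553398 were in members. Gene counts are therefore given also without vehicle rats 1 and 2, which leaves vehicle rat 4 alone in its group. Those adjusted p values take the spread from the TGFBRi rats and assume that a vehicle rat varies like them, so they compare vehicle rat 4 with the TGFBRi rats and are no separate test of the treatment. The labels name no batch, and whether handling differed between libraries was not tested.

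The members carried RNA of capillaries, though not every capillary gene was higher than in venular cells. Across the 9 rats GPIHBP1 averaged 1813 ± 761.8 CPM (SD, n = 9; CPM is a gene's share of all UMIs of the cell class, scaled to a common total) against 157 ± 99.1 in venular endothelium, the 1151 cells that met the same rule but held at least 2 UMIs of SELP and SELE. FABP4 averaged 10719 ± 3563 CPM against 6784 ± 1660. BTNL9, a butyrophilin of capillary endothelium, was at 250 ± 111 against 5.08 ± 4.07 CPM, and RGCC, a cell cycle regulator enriched in capillaries, at 506 ± 245 against 47.7 ± 29.5. In the other direction VWF, the clotting carrier protein, was at 156 ± 38.2 in members and 622 ± 152 in venular cells, and the adhesion molecule VCAM1 at 45.7 ± 29 and 363 ± 155. Genes of the capillary list did not all follow the label. The water channel AQP1 was at 671 ± 151 and 2562 ± 495 and MEOX2 at 51.2 ± 15.55 and 143 ± 56.9, both lower in members. FABP5 differed little, at 926 ± 202 and 791 ± 151. The other measured genes of that list were higher in members. Since the classes were drawn from the same cells by the genes they express, these are descriptions without a test.

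The label had exceptions. The tight junction gene CLDN5 was detected in 36.6% of members, and 0.707% of cells with no CDH5 or EGFL7 UMI held it. RNA of lymphatic endothelium was present too: CCL21, a chemokine of lymphatic vessels, averaged 1891 ± 831 CPM although only 5.61% of members held a UMI of it, and 309 members (10.4%) had at least 2 UMIs of lymphatic genes. A further 354 members (11.9%) had at least 2 UMIs of luminal or basal epithelial genes, and 664 held the 1 permitted UMI of PTPRC, PROX1, COL3A1 or KRT14. Cell barcodes were shared between libraries for 12494 of all 103524 cells (6127 distinct barcodes) and for 373 of the 2976 members. This was thus not particular to members. Against 3120 genes called with all members (described below), 2966 were called without the epithelial-marker members, 3124 without the lymphatic-marker members, 2495 without those holding the permitted UMI and 2913 without the shared barcodes.

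**Figure D1:**
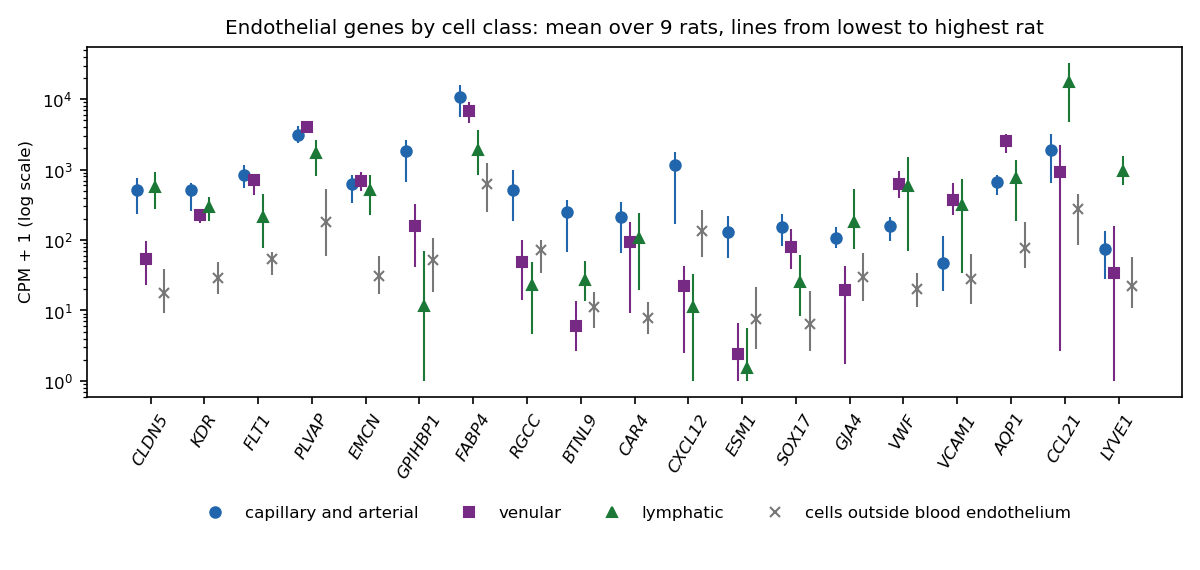
Endothelial genes in 4 cell classes, as CPM + 1 on a log axis: each symbol is the mean over 9 rats and each line runs from the lowest to the highest rat. GPIHBP1, BTNL9, RGCC, CXCL12 and ESM1 lie well above venular cells in the capillary and arterial class, VWF, VCAM1 and AQP1 below them, and CCL21 is highest in lymphatic cells.

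At the edge of the rule the cells were alike but poorer in endothelial RNA. The 627 members with exactly 3 UMIs of CDH5 and EGFL7 had GPIHBP1 in 55%, CLDN5 in 29% and the luminal keratin KRT8 in 6.54%. Among 924 cells just outside, with 2 UMIs, the shares were 49.7%, 24.4% and 10.2%. The members as a whole had a median of 4659 UMIs, those with 3 UMIs 2800 and the cells just outside 2117.

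Within the members, 1027 cells (34.5%) held at least 2 UMIs over the arterial genes GJA5, GJA4, SEMA3G, BMX, SOX17 and HEY1 and were called arterial-like. Other genes also differed with this choice. FBLN5, an elastic fibre protein, averaged 99.9 ± 42.2 CPM in arterial-like and 31.8 ± 14.6 in other members, the hypoxia-inducible factor EPAS1 500 ± 135 and 276 ± 57.3, the matrix protein MGP 549 ± 375 and 203 ± 130, and the chemokine CXCL12 1482 ± 811 and 826 ± 429. Among the largest ratios were genes of smooth muscle and red cells too: MYH11 was at 46.4 and 6.49 CPM, TAGLN at 87.3 and 23.3, ACTA2 at 105.84 and 32.3, and the haemoglobin gene HBB at 123.71 and 19.1, ratios no lower than that of FBLN5. The part of RNA from those cells was not tested. The Notch ligand DLL4 differed less, at 100 ± 24.1 and 69.96 ± 22.2. In venular cells FBLN5 and CXCL12 were lower than in arterial-like cells, at 9.79 and 21.2 CPM, but MGP was higher, at 1139 ± 824 CPM. The arterial-list genes ELN and EDN1 were at 394 and 52.1 CPM in arterial-like cells and 918 and 87 CPM in venular cells. The summed arterial list of vehicle rats was at 1498, 1920.5 and 3581.5 CPM in members and 2989, 3958 and 4368 CPM in venular cells. In TGFBRi rats it was at 2613 to 4320 and 1971 to 2746 CPM. GPIHBP1 was as high in arterial-like cells (1911 ± 905) as in the others (1709 ± 638), so the arterial-like cells were not free of capillary RNA. They are a range cut from a sum of UMIs and not a separate cell type.

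Members were a smaller part of the gland after TGFBRi. They made up 3.63%, 3.58% and 4.07% of the cells of vehicle rats 1, 2 and 4, and 1.26% at the lowest, 2.07% at the median and 3.23% at the highest among TGFBRi rats. No TGFBRi rat reached a vehicle rat. The mean log2 share fell by 0.85, a ratio of 0.555 (exact permutation test, two-sided, p = 0.0238, which is the smallest that 84 splits allow, and 0.0952 adjusted over the 4 shares tested). The 95% Wilson intervals, which cover counting error only, overlapped at the edge of the groups, with 3.35% to 3.93% in vehicle rat 1 and 2.93% to 3.57% in TGFBRi rat 6, which had the highest share of its group. A lower share can reflect fewer of these cells, more of the others or a different yield at dissociation, and these cannot be told apart.

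The rule gene EGFL7 stood at 892, 740 and 376 CPM in the vehicle rats and between 337 and 459 in TGFBRi rats. With at least 2 UMIs of CDH5 alone in place of 3 UMIs of the sum, which changes both the gene and the threshold, the ratio was 0.623 against 0.555, with overlapping values (exact permutation p = 0.167). Among cells with at least 2000 UMIs, each thinned to 2000 before the rule was applied, the mean log2 share fell by 1.08 (exact permutation p = 0.0238). Shallower cells were left out of this share, so that 8131 of 12615 cells of vehicle rat 2 entered it. With at least 5 UMIs of the sum the groups overlapped, at 2.55%, 2.33% and 2.04% in vehicle rats and 0.77% to 2.17% in TGFBRi rats (exact permutation p = 0.0714). Leaving out any vehicle rat, the exact permutation test cannot go below p = 0.0714.

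**Figure D2:**
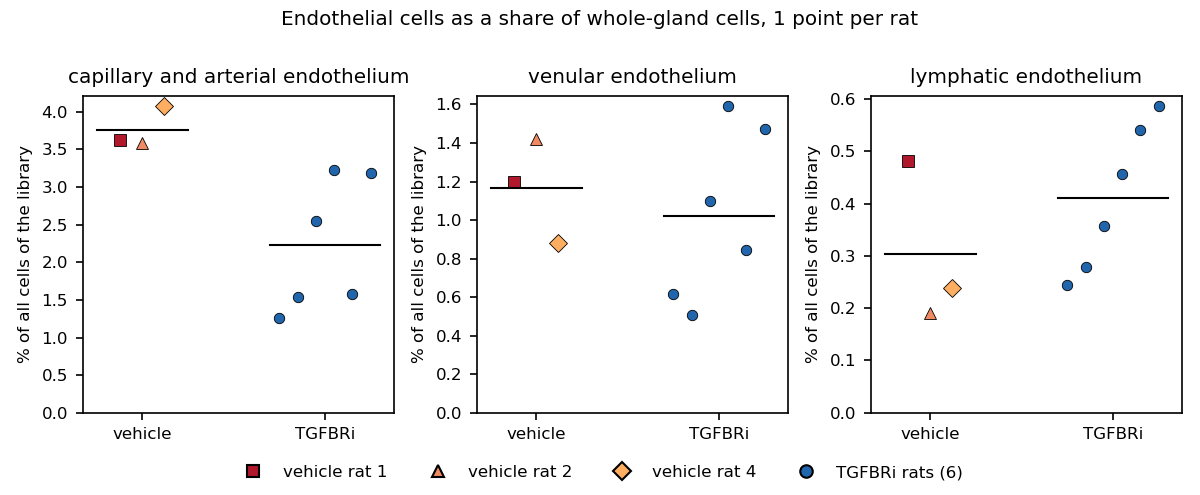
Share of capillary and arterial, venular and lymphatic endothelium among all cells of each library (%), 1 point per rat with a line at the group mean. Capillary and arterial endothelium lies at 3.58% to 4.07% in vehicle and 1.26% to 3.23% in TGFBRi rats, without overlap, while the venular and lymphatic shares overlap.

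Blood endothelium as a whole was 5.19%, 5.37% and 5.27% of the cells in vehicle rats and 1.98% to 4.97% in TGFBRi rats, also without overlap. Venular cells, taken alone, overlapped between the groups. They were 1.20%, 1.42% and 0.882% of vehicle libraries and 0.506% to 1.59% of TGFBRi libraries. Members were 69.9%, 66.6% and 77.3% of blood endothelium in vehicle rats and 60.9%, 65.3% and 73.5% at the lowest, median and highest of TGFBRi rats, a difference of -5.41 percentage points (exact permutation p = 0.167). A venular cell with few UMIs can lack a selectin UMI and so pass as a member. Among cells with at least 2000 UMIs, each thinned to 2000 before the rule, the means were 80.1% in vehicle and 77.1% in TGFBRi rats (exact permutation p = 0.524). Among members thinned to 2000 UMIs, arterial-like cells were 8.63% and 9.26% in vehicle rats 1 and 2, 23.6% in vehicle rat 4, and 12.8% to 22.6% in TGFBRi rats (exact permutation p = 0.500). Vehicle rat 4 thus lay above every TGFBRi rat and vehicle rats 1 and 2 below them. Cells with at least 2 UMIs of G2/M genes were 2.81%, 5.99% and 9.85% of thinned members in vehicle rats and 2.35% to 14.0% in TGFBRi rats (exact permutation p = 0.548). The thinning left out 13 to 84 shallower members per rat, and unthinned the arterial-like shares averaged 28.7% in vehicle and 40.99% in TGFBRi rats.

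Gene expression was compared on UMI counts summed over the members of each rat, 3 vehicle against 6 TGFBRi rats, with edgeR's quasi-likelihood test and Benjamini-Hochberg adjustment. Genes with adjusted p no higher than 0.1 were called, and fold changes are log2 of TGFBRi over vehicle ± SE. Of 12573 genes tested, 3120 (24.8%) were called, 1365 higher (10.9%) and 1755 lower (14.0%) after TGFBRi. Counts of called genes in the lists below are to be read beside these shares. With vehicle rats 1 and 2 left out, 911 of 11950 genes (7.62%) were called, 2.6% higher and 5.02% lower, and 543 of these were the same genes in the same direction. With vehicle rat 4 left out the calls were 4942 (40.0%), 19.6% higher and 20.4% lower, without vehicle rat 1 1441 and without vehicle rat 2 1539. Scaling by total counts instead of TMM moved the median log2 fold change of all genes from -0.00 to 0.15 and the calls to 2039 higher and 1154 lower, 63.9% higher against 43.8% by TMM. Values of 2039 genes (16.2%) did not overlap between the groups. A stricter set, chosen after the values were seen, held 428 genes (3.4%), 126 higher (1.0%) and 302 lower (2.4%), that did not overlap and were called in the same direction in all rats, without vehicle rats 1 and 2, and without vehicle rat 4. The TGFBRi rats are in all 3 of these fits and vehicle rat 4 alone stands for its group in one, so this is a description and no test of stability.

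**Figure D3:**
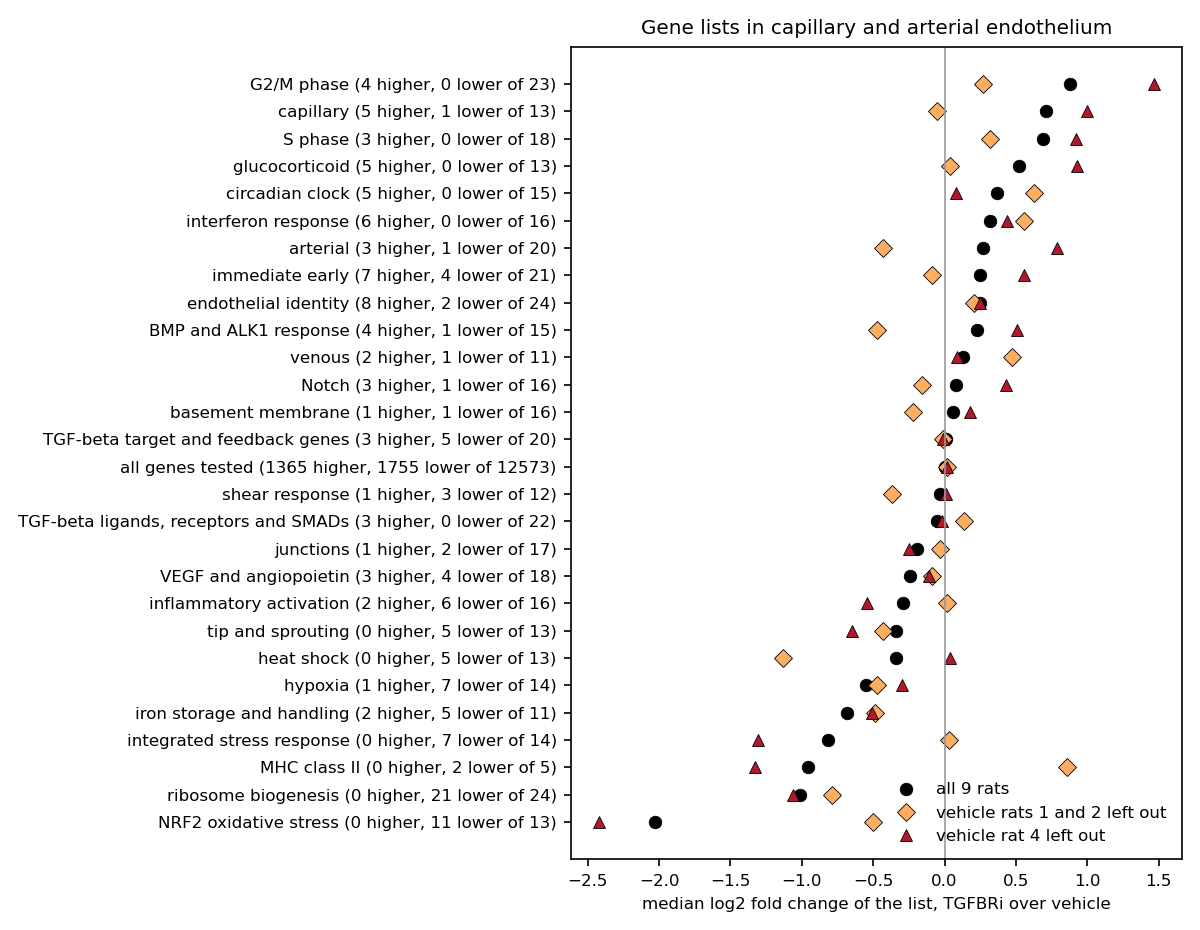
Median log2 fold change (TGFBRi over vehicle) of each gene list in capillary and arterial endothelium, with all rats, without vehicle rats 1 and 2 and without vehicle rat 4; counts of called genes stand beside each name. Ribosome biogenesis stays below 0 in all 3 sets, while the arterial, capillary and MHC class II medians change sign or shrink to near 0 without vehicle rats 1 and 2.

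The receptor of the inhibited pathway changed in the members. TGFBR2, the TGFβ-binding type II receptor, was at 85.3, 100 and 134 CPM in vehicle rats 1, 2 and 4 and at 214, 256 and 276 CPM at the lowest, median and highest of the TGFBRi rats. Every TGFBRi rat was above every vehicle rat, and the gene rose by 1.07 ± 0.17 (adjusted p = 0.00158, and 0.70 with adjusted p = 0.0527 without vehicle rats 1 and 2). The co-receptor TGFBR3 (betaglycan) was at 47.8, 35.5 and 102.9 CPM and at 166, 179 and 227 CPM, again without overlap, and rose by 1.41 ± 0.28 (adjusted p = 0.00550, and 0.64 with adjusted p = 0.0915 without the 2 rats). ACVRL1 rose by 0.87 ± 0.26 (adjusted p = 0.0342), but the difference was 0.12 (adjusted p = 0.788) without vehicle rats 1 and 2. These 3 were the called members of a list of 22 ligands, receptors and SMADs, whose median of -0.05 was near that of all genes. Without vehicle rat 4, 4 were higher and 3 lower. TGFBR1, the kinase that the drug inhibits, differed by -0.37 ± 0.23 (adjusted p = 0.287) and ENG by 0.11 ± 0.13 (adjusted p = 0.582). The ligand TGFB1 differed by -0.06 ± 0.15 (adjusted p = 0.830).

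Target genes of TGFβ did not share a direction. PMEPA1, a feedback inhibitor of SMAD signalling, fell by 0.92 ± 0.31 (adjusted p = 0.0592) and differed by -0.01 (adjusted p = 0.998) without vehicle rats 1 and 2. CDKN1A, a cell cycle inhibitor, fell by 0.39 ± 0.12 (adjusted p = 0.0400, and -0.49 with adjusted p = 0.0622 without them). SMAD7, the inhibitory SMAD, differed by 0.23 ± 0.19 (adjusted p = 0.438), with values that overlapped. Of 20 target and feedback genes 3 were higher and 5 lower, with a median of 0.01. Without vehicle rats 1 and 2 none was higher and 3 of 19 were lower, and without vehicle rat 4 5 were higher and 7 lower.

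Of 15 genes of the BMP and ALK1 branch 4 were higher and 1, the ligand BMP2, lower, beside 10.9% and 14.0% of all genes. ID1, the best-known ALK1 target, was at 165, 179 and 272 CPM in vehicle rats and 192, 245 and 262 CPM at the lowest, median and highest of the TGFBRi rats, a difference of 0.04 ± 0.17 (adjusted p = 0.891). ID3 rose by 0.45 ± 0.14 (adjusted p = 0.0417) and ATOH8, a transcription factor induced by ALK1, by 2.54 ± 0.48 (adjusted p = 0.00411), from 0.3 to 1.7 CPM in vehicle rats to 4.5 to 7.4 CPM in TGFBRi rats. Without vehicle rats 1 and 2 none was higher and 4 were lower, and ID3 (0.21) and ATOH8 (1.71) were not called. Leaving out vehicle rat 4 instead, 9 were higher and 1 lower.

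Of 13 genes of sprouting vessels 5 were lower after TGFBRi and none higher, with a median of -0.34, and 3 were lower without vehicle rats 1 and 2, beside 14.0% and 5.02% of all genes. Without vehicle rat 4, 2 were higher and 7 lower. ESM1 (endocan), a proteoglycan of endothelial tip cells that was nearly confined to members among the endothelial classes (131 ± 63.4 CPM against 1.44 ± 1.95 in venular and 0.53 ± 1.58 in lymphatic cells), was at 210, 198 and 216 CPM in vehicle rats and at 55.5, 81.9 and 136 CPM at the lowest, median and highest of the TGFBRi rats. It fell by 1.33 ± 0.23 (adjusted p = 0.00263, and -1.42 with adjusted p = 0.0213 without vehicle rats 1 and 2). ADM, the vasodilator adrenomedullin, was at 527, 501 and 297 CPM and at 57.3, 81.9 and 134 CPM, and fell by 2.49 ± 0.22 (adjusted p = 4.86e-05, and -1.96 with adjusted p = 0.00103 without them). Both genes were separated between the groups in every rat. The growth factor PGF fell by 1.08 ± 0.34 with overlap (adjusted p = 0.0460, and -1.37 with adjusted p = 0.0865 without them), as did the chemokine receptor CXCR4, by 1.10 ± 0.28 (adjusted p = 0.0181, and -0.08 with adjusted p = 0.925 without the 2 rats). The urokinase receptor PLAUR fell by 0.95 ± 0.15 (adjusted p = 0.00182, and -0.51 with adjusted p = 0.102 without them). The summed list was at 2845, 2798 and 2006 CPM in members of vehicle rats and 1340 to 1657 CPM in those of TGFBRi rats. Outside blood endothelium it stood at 1398, 1217 and 1052 CPM against 417 to 702 CPM, so lower values were not limited to these cells.

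VEGF and angiopoietin genes were higher in 3 and lower in 4 of 18, beside 10.9% and 14.0% of all genes, with a median of -0.24, and 1 was higher and 1 lower without vehicle rats 1 and 2, and 6 and 7 without vehicle rat 4. The 3 higher genes were membrane proteins. KDR, the main VEGF receptor, was at 258, 295 and 479 CPM in vehicle rats and at 557, 590 and 644 CPM at the lowest, median and highest of the TGFBRi rats and rose by 0.64 ± 0.18 (adjusted p = 0.0295). The angiopoietin receptor TEK rose by 0.57 ± 0.15 (adjusted p = 0.0182) and its phosphatase PTPRB by 0.80 ± 0.20 (adjusted p = 0.0180). None of the 3 was called without vehicle rats 1 and 2 (0.13, 0.40 and 0.24). The ligands PGF and VEGFB and the feedback genes DUSP5 and RCAN1 were lower, and VEGFA differed by -0.50 ± 0.28 (adjusted p = 0.232).

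In the Notch pathway, which sets arterial fate, the ligand DLL1 and the glycosyltransferase MFNG changed in opposite directions. DLL1 was at 76, 85.7 and 98.6 CPM in vehicle rats and at 47.3, 55.8 and 56.9 CPM at the lowest, median and highest of the TGFBRi rats. It fell by 0.84 ± 0.14 (adjusted p = 0.00240, and -1.07 with adjusted p = 0.00314 without vehicle rats 1 and 2). MFNG was at 27.6, 41.9 and 40.0 CPM and at 54.4, 86.5 and 114 CPM, and rose by 1.10 ± 0.21 (adjusted p = 0.00427, and 0.93 with adjusted p = 0.0862 without them). The groups did not overlap for either gene. NOTCH1 rose by 0.51 ± 0.16 (adjusted p = 0.0470, and 0.62 with adjusted p = 0.159 without them) and DLL4 differed by 0.51 ± 0.21 (adjusted p = 0.105). Of the 16 genes tested 3 were higher and 1 lower, against 1 higher and 4 lower without vehicle rats 1 and 2 and 8 higher and 3 lower without vehicle rat 4.

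Of 24 genes that mark endothelium 8 were higher and 2 lower, with a median of 0.25. There were 3 higher and none lower without vehicle rats 1 and 2, and without vehicle rat 4 11 were higher and 5 lower. FLI1, an ETS transcription factor of endothelial cells, averaged 91.7 ± 8.9 CPM in vehicle rats (SD, n = 3) and was at 179, 244 and 269 CPM at the lowest, median and highest of the TGFBRi rats and rose by 1.23 ± 0.16 (adjusted p = 0.000583, and 1.32 with adjusted p = 0.00581 without vehicle rats 1 and 2). RAMP2, the partner of the adrenomedullin receptor, was at 252, 283 and 477 CPM and at 675, 832 and 959 CPM, and rose by 1.13 ± 0.20 (adjusted p = 0.00304, and 0.59 with adjusted p = 0.0983 without them). CLDN5 differed by -0.27 ± 0.32 (adjusted p = 0.600), with TGFBRi rats from 231 to 765 CPM around vehicle rats at 540 to 552.

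Capillary genes depended on vehicle rats 1 and 2. GPIHBP1 was at 672 and 711 CPM in these rats, 1401 in vehicle rat 4 and 1810, 2271 and 2666 at the lowest, median and highest of the TGFBRi rats. FABP4 was at 6173, 5592 and 8127 CPM and at 10390, 12742 and 15729 CPM. Both were higher in every TGFBRi rat than in any vehicle rat and rose by 1.12 ± 0.24 (adjusted p = 0.00735) and 0.79 ± 0.17 (adjusted p = 0.00706), yet without vehicle rats 1 and 2 the differences of 0.50 and 0.46 had adjusted p of 0.243 and 0.242. BTNL9 and CD300LG, a sialomucin of capillaries and high endothelial venules, were at 67 and 71.4 and at 13.5 and 17 CPM in vehicle rats 1 and 2, against 278 and 116 in vehicle rat 4, which lay in or at the edge of the TGFBRi range. TCF15, a transcription factor of fatty acid-handling capillaries, was the exception: at 107.5, 111 and 105.5 CPM in vehicle rats and 56.1, 63.3 and 81.9 CPM at the lowest, median and highest of the TGFBRi rats, it fell by 0.85 ± 0.15 (adjusted p = 0.00243, and -0.85 with adjusted p = 0.0273 without the 2 rats). Among 13 capillary genes 5 were higher and 1 lower with all rats, 1 and 1 without vehicle rats 1 and 2, and 10 and 1 without vehicle rat 4.

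Of 20 arterial genes 3 were higher (EFNB2, JAG2 and CXCL12) and 1 lower, beside 10.9% and 14.0% of all genes, with a median of 0.27; without vehicle rats 1 and 2 none was higher, 4 were lower and the median was -0.43. With vehicle rat 4 left out instead, 11 were higher and 2 lower, with a median of 0.79. MGP, an inhibitor of BMP signalling and calcification, was the lower gene: it was at 437, 672 and 542 CPM in vehicle rats and at 147, 207 and 517 CPM at the lowest, median and highest of the TGFBRi rats and fell by 1.28 ± 0.29 (adjusted p = 0.0111, and -1.30 with adjusted p = 0.0947 without them). Venous genes were higher in 2 and lower in 1 of 11, and VCAM1 was the one that fell, by 1.07 ± 0.36 (adjusted p = 0.0570, and -0.30 with adjusted p = 0.764 without them). Basement membrane (1 higher, 1 lower of 16), junction (1 and 2 of 17) and shear response genes (1 and 3 of 12) are to be set beside 24.8% of all genes called. Their counts without vehicle rats 1 and 2 were none and 2, 2 and none, and none, beside 7.62% of all genes, and without vehicle rat 4 they were 5 and 1, 3 and 7, and 4 and 4, beside 40.0%. Venous genes then had 3 higher and 3 lower, with a median of 0.09. Their median was 0.13 with all rats and 0.47 without vehicle rats 1 and 2.

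**Figure D4:**
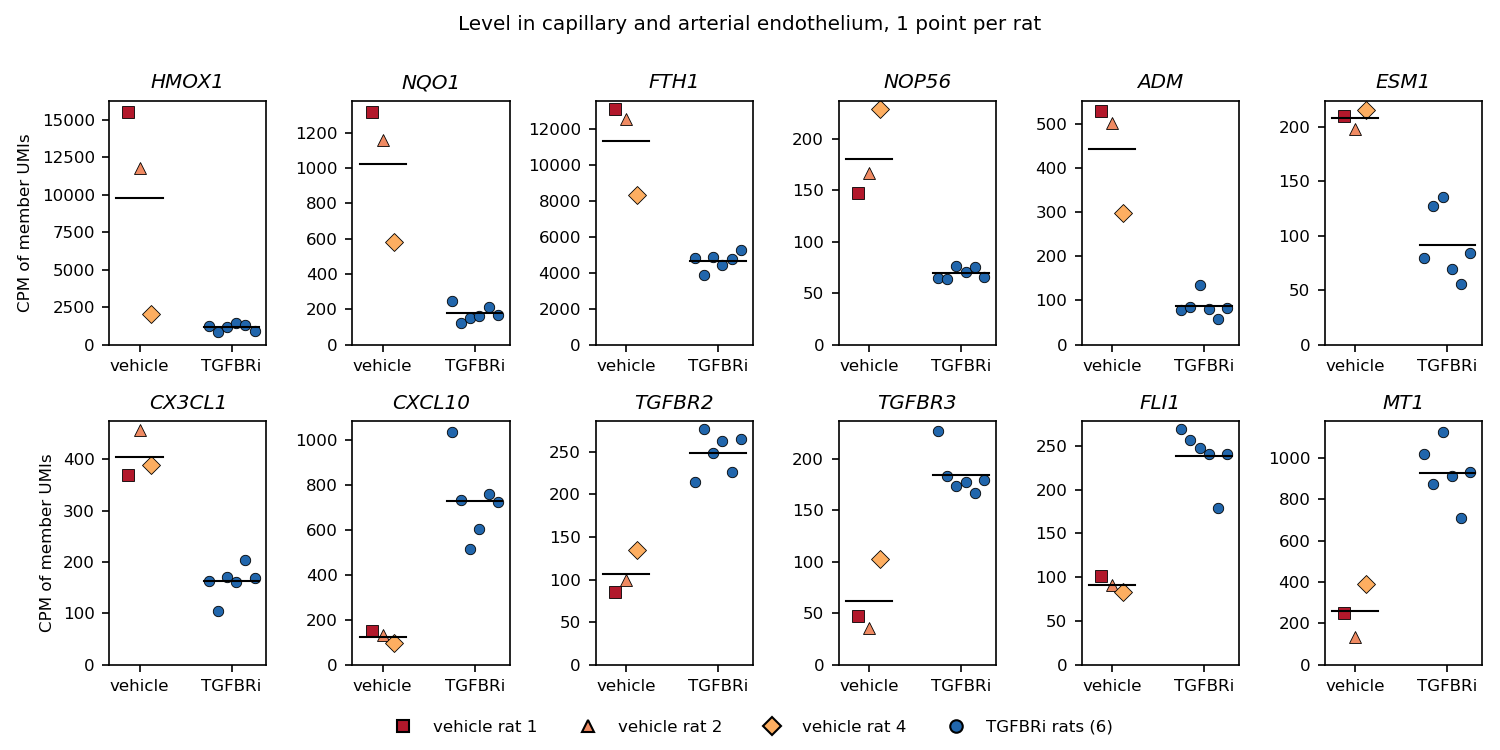
Level of 12 genes in capillary and arterial endothelium as CPM of member UMIs, 1 point per rat with a line at the group mean. In each panel the 6 TGFBRi rats lie entirely on 1 side of the 3 vehicle rats; for HMOX1 and NQO1 vehicle rats 1 and 2 lie far above vehicle rat 4.

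Chemokines moved in both directions. CXCL10, an interferon-induced attractant of T cells, was at 149, 132 and 98.2 CPM in vehicle rats 1, 2 and 4 and at 515, 728 and 1036 CPM at the lowest, median and highest of the TGFBRi rats. Every TGFBRi rat was over 3 times the highest vehicle rat, and the gene rose by 2.38 ± 0.23 (adjusted p = 7.75e-05, and 2.69 with adjusted p = 0.000681 without vehicle rats 1 and 2). CX3CL1 (fractalkine), an endothelial surface chemokine that captures monocytes, was at 369, 456 and 389 CPM and at 105.6, 166 and 204 CPM, and fell by 1.47 ± 0.16 (adjusted p = 0.000203, and -1.45 with adjusted p = 0.00206 without them). The neutrophil attractant CXCL3 was at 438, 229 and 395 CPM and at 3.4, 13.7 and 98 CPM and fell by 3.75 ± 0.64 (adjusted p = 0.00239, and -3.98 with adjusted p = 0.00581 without them). CCL2, CXCL1 and CSF3 were lower with all rats, but without vehicle rats 1 and 2 the differences of CCL2 and CSF3 were 0.82 (adjusted p = 0.0705) and 0.73 (adjusted p = 0.463) and that of CXCL1 was -0.10 (adjusted p = 0.955). Of 16 inflammatory genes 2 were higher and 6 lower, against 3 and 1 without vehicle rats 1 and 2 and 3 and 9 without vehicle rat 4.

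Interferon-response genes rose in part. OAS1A, a sensor of double-stranded RNA, was at 10.4, 21.9 and 13.6 CPM in vehicle rats and at 27.2, 37.1 and 39.7 CPM at the lowest, median and highest of the TGFBRi rats and rose by 1.07 ± 0.22 (adjusted p = 0.00731, and 1.18 with adjusted p = 0.0279 without vehicle rats 1 and 2). The ubiquitin-like modifier ISG15 was at 104.7, 182 and 114 CPM and at 217, 268 and 329 CPM, and rose by 0.85 ± 0.19 (adjusted p = 0.00955, and 1.02 with adjusted p = 0.0233 without them). LGALS3BP, a secreted galectin-binding protein, rose by 1.05 ± 0.23 (adjusted p = 0.00864, and 1.48 with adjusted p = 0.0150 without them). Of 16 genes 6 were higher, IRF7 and MX1 among them, and none lower, and 8 of 16 did not overlap in the higher direction (10.5% of all genes). Without vehicle rat 4, 8 were higher and 1 lower. The median was 0.32 with all rats and 0.56 without vehicle rats 1 and 2. The death ligand TNFSF10 rose by 2.14 ± 0.39 (adjusted p = 0.00320, and 1.09 with adjusted p = 0.0566 without them) and the MHC class I gene RT1-T24-4 by 2.03 ± 0.34 (adjusted p = 0.00221, and 1.43 with adjusted p = 0.0866 without them). RT1 genes are near-identical copies of each other, so reads may have been split between them and the RT1-T24-4 value is uncertain.

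Promoter stretches are shown because many genes of the list hold the letters of the interferon-stimulated response element. In RefSeq windows of the GRCr8 assembly, from 250 bases before to 50 after each gene's start, GAAA, then any 2 bases, then GAAA, on either strand, was found in 9 of the 12 interferon-list genes with a window and in 3.92% of 33469 windows. A gene counted when any window under its name held the letters, while the 3.92% is a share of single windows, so the units differ. The capitals below mark the matched letters, and each sequence is written in the direction of the gene. For CXCL10, which rose but is not in that list, it is the whole stretch of 250 bases before the start, and for the other 3 it is the match with 15 bases on either side, the first match beginning 41, 50 and 69 bases before the start in OAS1A, LGALS3BP and IRF7. The printed CXCL10 stretch lies at chr14:15988816-15989065 (plus strand) and that of OAS1A at chr12:41330410-41330455 (plus). The stretch of LGALS3BP lies at chr10:104127874-104127913 (minus) and that of IRF7, whose match is on the opposite strand, at chr1:205800068-205800107 (minus). A match is a description of letters and not a measured binding site.
CXCL10: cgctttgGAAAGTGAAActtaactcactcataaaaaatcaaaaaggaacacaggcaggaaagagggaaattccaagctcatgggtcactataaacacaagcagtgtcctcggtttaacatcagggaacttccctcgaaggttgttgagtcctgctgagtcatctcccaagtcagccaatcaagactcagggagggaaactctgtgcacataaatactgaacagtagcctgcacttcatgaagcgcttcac
OAS1A: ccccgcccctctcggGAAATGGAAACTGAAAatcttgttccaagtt
LGALS3BP: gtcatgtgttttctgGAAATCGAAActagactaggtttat
IRF7: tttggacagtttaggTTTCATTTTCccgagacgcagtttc

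Genes of the antioxidant response that the transcription factor NRF2 controls, a list put together after the values were seen, were among the largest decreases, beside MMP13, CXCL3, KRT17, KRT7, TUBB3 and GDF15, which are not in it. HMOX1, the heme-degrading enzyme, was at 15519 and 11781 CPM in vehicle rats 1 and 2, at 2072 CPM in vehicle rat 4 and at 871, 1244 and 1419 CPM at the lowest, median and highest of the TGFBRi rats. It fell by 3.21 ± 0.38 with all rats (adjusted p = 0.000305) and by 1.02 without vehicle rats 1 and 2 (adjusted p = 0.0153). NQO1, a quinone reductase, was at 1321, 1160 and 583 CPM and at 124, 165 and 245 CPM, and fell by 2.68 ± 0.23 (adjusted p = 4.86e-05, and -1.93 with adjusted p = 0.000414 without them). The aldo-keto reductase AKR1B8 fell by 6.11 ± 0.54, and GCLM, a subunit of the glutathione-making ligase, fell by 3.48 ± 0.39. The cystine transporter SLC7A11 fell by 4.66 ± 0.54 and OSGIN1 fell by 3.33 ± 0.45, and all 4 were called without vehicle rats 1 and 2 too. Of 13 genes tested 11 were lower, 6 without these rats. When vehicle rat 4 was left out, 11 of the 13 were lower and 1 was higher. With all rats, 1 gene was higher without overlap but was not called. The summed list stood at 21484 and 17108 CPM in members of vehicle rats 1 and 2, 3501 in vehicle rat 4 and 1444 to 2265 in TGFBRi rats. The vehicle rats were also above the TGFBRi rats outside blood endothelium, at 5738, 6435 and 2534 against 775 to 1077 CPM, so the difference was not particular to these cells. The letters TGACNNNGC of the antioxidant response element, on either strand, were found for 4 of 11 of these genes and in 12.1% of all windows. Genes and windows were counted as for the interferon list. The GCLM stretch below lies at chr2:213031948-213031986 (GRCr8, plus strand). Its match is again shown in capitals and is on the opposite strand.
GCLM: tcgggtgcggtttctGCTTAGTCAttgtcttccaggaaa

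Ferritin fell alongside. FTL1, the light chain of the iron store, was at 2653, 2334 and 2222 CPM in vehicle rats and at 730, 841 and 890 CPM at the lowest, median and highest of the TGFBRi rats, and fell by 1.70 ± 0.11 (adjusted p = 2.74e-06, and -1.63 with adjusted p = 2.13e-05 without vehicle rats 1 and 2). Vehicle rat 4 was close to vehicle rats 1 and 2 for this gene. The heavy chain FTH1 was at 13084, 12563 and 8343 CPM and at 3874, 4785 and 5235 CPM, and fell by 1.43 ± 0.14 (adjusted p = 7.75e-05, and -1.03 with adjusted p = 0.00143 without them). SLC39A8, a zinc and iron importer, rose by 1.74 ± 0.26 (adjusted p = 0.00111, and 1.84 with adjusted p = 0.0150 without them).

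Stress genes of another kind set vehicle rat 4 apart. The summed heat shock list was at 24921 CPM in members of vehicle rat 4, 11661 and 10530 in vehicle rats 1 and 2, and 10159 to 15119 in TGFBRi rats. Cells outside blood endothelium of vehicle rat 4 were highest too, at 15033 CPM against 7110 to 9335 in all others. HSPB1, a small chaperone, was at 1582 and 1952 CPM in vehicle rats 1 and 2, 7927 in vehicle rat 4, and 1366 to 2382 CPM in TGFBRi rats. Of 13 heat shock genes 5 were lower with all rats, 4 of these with overlap, and 10 were lower without vehicle rats 1 and 2, when vehicle rat 4 alone stood for the vehicle group. Without vehicle rat 4, 5 were higher and 3 lower. The mitochondrial chaperone HSPD1 was lower without overlap, by 1.07 ± 0.19 (adjusted p = 0.00299, and -1.44 with adjusted p = 0.00301 without vehicle rats 1 and 2), and by 0.85 without vehicle rat 4 (adjusted p = 0.00188). The part of this in the comparison without vehicle rats 1 and 2 was not tested.

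Of 24 ribosome assembly genes, also listed after the values were seen, 21 were lower and none higher with all rats and 14 were lower without vehicle rats 1 and 2, beside 14.0% and 5.02% of all genes. NOP56, a core protein of the snoRNA particles that modify ribosomal RNA, was at 147, 167 and 229 CPM in vehicle rats and at 64, 68.2 and 76.2 CPM at the lowest, median and highest of the TGFBRi rats, and fell by 1.53 ± 0.15 (adjusted p = 0.000126, and -1.90 with adjusted p = 2.13e-05 without vehicle rats 1 and 2). The nucleolar chaperone NPM1 was at 1490, 1395 and 1189 CPM and at 917, 957 and 976 CPM, and fell by 0.66 ± 0.11 (adjusted p = 0.00198, and -0.51 with adjusted p = 0.0376 without them). No TGFBRi rat reached a vehicle rat for either gene. The median of the list was -1.01, and 19 were lower by total-count scaling. Outside blood endothelium the summed list was at 3816, 4065 and 3667 CPM in vehicle rats and 2717 to 3103 CPM in TGFBRi rats. In venular cells it was at 3450, 3662 and 4414.5 CPM and at 2732 to 3250 CPM. Lower values were thus not limited to the members.

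Hypoxia-induced genes were lower in 7 of 14, beside 14.0% of all genes, with a median of -0.55. Without vehicle rat 4, 2 were higher and 6 lower, beside 19.6% and 20.4% of all genes, with a median of -0.30. Lower values were not limited to the members. Outside blood endothelium the summed list was at 3510, 3503 and 2933.5 CPM in vehicle rats and 2287 to 2701 CPM in TGFBRi rats. The glycolytic enzyme ALDOA was at 1579, 1502 and 1179 CPM in vehicle rats and at 809, 896 and 1010 CPM at the lowest, median and highest of the TGFBRi rats, and fell by 0.81 ± 0.12 (adjusted p = 0.00112, and -0.58 with adjusted p = 0.0343 without vehicle rats 1 and 2). PGK1, another glycolytic enzyme, and the stress gene NDRG1 fell by 1.13 ± 0.23 and 1.33 ± 0.24 with all rats, but vehicle rat 4 lay inside the TGFBRi range for both and neither was called without vehicle rats 1 and 2. PDK1, which holds pyruvate back from mitochondria, was the gene that rose, by 1.02 ± 0.31 (adjusted p = 0.0387). Without vehicle rats 1 and 2, 3 of the 14 were lower and none higher.

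Immediate early genes were higher in 7 and lower in 4 of 21, against 1 and 5 without vehicle rats 1 and 2 and 14 and 5 without vehicle rat 4. FOSB, an AP-1 subunit, was at 195, 189 and 265 CPM in vehicle rats and at 533, 614 and 669 CPM at the lowest, median and highest of the TGFBRi rats, and rose by 1.35 ± 0.16 (adjusted p = 0.000266, and 1.02 with adjusted p = 0.00581 without vehicle rats 1 and 2). IER5 was at 262, 282 and 363 CPM and at 183, 222 and 247 CPM, and fell by 0.61 ± 0.14 (adjusted p = 0.0126, and -0.91 with adjusted p = 0.00681 without them). Groups were apart for both. Of 13 glucocorticoid-induced genes 5 were higher and none lower, and 1 was higher and 1 lower without vehicle rats 1 and 2, and 9 and 1 without vehicle rat 4. MT1, a metal-binding metallothionein, was at 251, 133 and 391 CPM in vehicle and 708, 922 and 1127 CPM in TGFBRi rats and rose by 1.68 ± 0.28 (adjusted p = 0.00209, and 1.06 with adjusted p = 0.0164 without them). ZBTB16, a glucocorticoid-induced repressor, rose by 2.48 ± 0.53 (adjusted p = 0.00810, and 1.14 with adjusted p = 0.132 without them).

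Of the cell cycle genes 3 of 18 for S phase and 4 of 23 for G2/M were higher and none lower, beside 10.9% of all genes tested, with medians of 0.69 and 0.88. None was called higher without vehicle rats 1 and 2, where the medians were 0.32 and 0.27, while 7 and 12 were higher without vehicle rat 4, with medians of 0.92 and 1.47. The called genes were at 26.8 CPM or less in every rat. MHC class II genes were lower in 2 of 5; both overlapped, and without vehicle rats 1 and 2 the median was 0.86 and none was called, while all 5 were lower without vehicle rat 4.

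RNA of other cell types moved with treatment too. Schwann cell genes were lower in 4 of 5, summing to 269, 138 and 137 CPM in vehicle rats and 41.6 to 63.5 CPM in TGFBRi rats, and 2 of 4 were lower without vehicle rats 1 and 2. The epithelial keratins KRT7 and KRT17 fell by 3.27 ± 0.35 and 3.57 ± 0.49, from 25.3 to 30.2 CPM for KRT7 and 6.4 to 30.2 CPM for KRT17 in vehicle rats to at most 9.0 and 3.7 CPM. Without vehicle rats 1 and 2 the differences were -3.35 (adjusted p = 0.00176) and -1.805 (adjusted p = 0.146). Without these rats no luminal, 3 of 7 fibroblast and 6 of 10 myeloid genes were lower. Luminal genes were lower in 3 of 8 (summed 1026, 529 and 501 CPM in vehicle, 158 to 842 CPM in TGFBRi rats), lymphatic genes in none of 6 (1003 to 3585 and 807 to 2811 CPM), fibroblast genes in 1 of 7 (48.1, 94.1 and 247, and 73.4 to 114 CPM) and myeloid genes in none of 10 (19.4, 60.4 and 306, and 20.8 to 325 CPM). Mural cell genes were higher in 2 of 10, DES and CSPG4 (summed 259 to 297 and 257 to 423 CPM). Milk protein genes (none of 5) summed to 72.3 to 1107 and 137 to 2266 CPM, basal epithelial genes (1 lower of 4) to 12.3 to 54.6 and 7.3 to 22.2 CPM, T and B cell genes (1 lower of 8) to 14.9 to 32.4 and 6.7 to 42.7 CPM, red cell and platelet genes (none of 4) to 46.7 to 294 and 12.4 to 615 CPM, and adipocyte genes (none of 3) to at most 6.4 CPM. The part of these cells in the results above was not tested beyond the counts without marker-bearing members given above.

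Among the other genes with the largest changes, DBP, a clock-controlled transcription factor, was at 2.8, 5.3 and 3.4 CPM in vehicle rats and 18.0, 23.9 and 28.9 CPM at the lowest, median and highest of the TGFBRi rats and rose by 2.496 ± 0.27 (adjusted p = 0.000152, and 2.61 with adjusted p = 0.00375 without vehicle rats 1 and 2). FUT8, the core fucosyltransferase, rose by 2.01 ± 0.28, and so did FAM171A2 (1.99 ± 0.34), the ISG15-activating enzyme UBA7 (1.94 ± 0.33), OAS1K (1.90 ± 0.33), the clock gene PER2 (1.83 ± 0.24) and RGS12 (1.72 ± 0.40), a regulator of G protein signalling. RGS12 was the one of these not called without vehicle rats 1 and 2. GDF15, a stress-induced cytokine, was at 2660, 1987 and 575 CPM in vehicle and 226, 270 and 315 CPM in TGFBRi rats and fell by 2.83 ± 0.30 (adjusted p = 0.000152, and -1.28 with adjusted p = 0.000992 without them). The tubulin TUBB3 fell by 3.01 ± 0.37, and the difference was -1.59 (adjusted p = 0.0440) without them. The collagenase MMP13 was at 54.6, 5.7 and 2.1 CPM in vehicle rats and at or near 0 in TGFBRi rats (at most 1.4 CPM), and most of its vehicle counts came from vehicle rat 1.

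Venular endothelium of the same rats had 2870 of 10817 genes called (26.5%), and 1224 without vehicle rats 1 and 2. Tested within rats, the TGFBRi effect differed between members and venular cells for 0.815% of 13014 genes, 52 with a higher (0.4%) and 54 with a lower (0.415%) fold change in members. Without vehicle rats 1 and 2 it differed for 218 (1.75%), 38 of them the same genes, without vehicle rat 2 for 65 and without vehicle rat 4 for 353. Of the 12 genes named below with the largest differences, only CFD was called without vehicle rats 1 and 2.

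SOCS3, which shuts off cytokine receptors, was at 17.2, 17 and 45.9 CPM in members of vehicle rats and at 47.3, 59.7 and 63.5 CPM at the lowest, median and highest of the TGFBRi rats. In venular cells it was at 36.4, 54.2 and 21.6 CPM and at 18.7, 19.8 and 24.1 CPM. It rose in members and fell in venular cells, and the effects differed by 2.23 ± 0.38 (adjusted p = 0.00187, and 0.32 with adjusted p = 0.860 without vehicle rats 1 and 2). TMEM204, a membrane protein of endothelial cells, rose by 0.63 in members and fell by 1.62 in venular cells (difference 2.29 ± 0.35, adjusted p = 0.000560), and TNFAIP2, a gene induced by TNF, differed by -0.39 in members (adjusted p = 0.411) and fell by 2.72 in venular cells (difference 2.37 ± 0.44, adjusted p = 0.00520). In the other direction TRIB3 and CHAC1, targets of the integrated stress response, were at 160 and 286 CPM in members of vehicle rat 1, 156 and 272 CPM in vehicle rat 2 and 22.1 and 35.3 CPM in vehicle rat 4, while the TGFBRi medians were 45.3 and 122 CPM. The differences of effect were -2.25 ± 0.26 (adjusted p = 7.74e-06) and -1.74 ± 0.25 (adjusted p = 0.000291), and vehicle rat 4 lay below every TGFBRi rat for both.

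TGFBR2 also differed between the classes with all rats. In venular cells it was at 65.4, 100.9 and 64.8 CPM in vehicle rats and at 75.3, 101.2 and 125 CPM at the lowest, median and highest of the TGFBRi rats, a difference of 0.19 ± 0.20 (adjusted p = 0.557). The effect in members was larger by 0.93 ± 0.23 (adjusted p = 0.0555). This difference was 0.94 (adjusted p = 0.136) without vehicle rat 1, 0.60 (adjusted p = 0.548) without vehicle rat 2 and 1.24 (adjusted p = 0.000221) without vehicle rat 4. With edgeR's own filter on low counts it was 0.97 (adjusted p = 0.123). Without both vehicle rats 1 and 2 it was 0.196 ± 0.31. For TGFBR3 the venular change was 1.60 ± 0.19 and the difference of effects -0.02 ± 0.31 (adjusted p = 1.00), or -1.79 ± 0.34 (adjusted p = 0.00577) without those rats. CCN1, a matrix protein of the TGFβ target list that was chosen here after its values were seen, differed by -0.17 ± 0.15 in members and fell by 1.13 ± 0.22 in venular cells (difference 0.998 ± 0.20, adjusted p = 0.00780, and 1.05 with adjusted p = 0.0663 without them). For ADM, CX3CL1, CXCL10 and HMOX1 the differences of effect were 0.57 ± 0.24, 0.31 ± 0.22, 0.98 ± 0.38 and 0.02 ± 0.24 (adjusted p = 0.420, 0.786, 0.377 and 1.00). With vehicle rats 1 and 2 left out they were 0.62, 1.08, -0.55 and 0.71. The CXCL10 difference was 0.13 (adjusted p = 0.971) without vehicle rat 2 and 1.49 (adjusted p = 0.00885) without vehicle rat 4, so it depended on single rats.

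**Figure D5:**
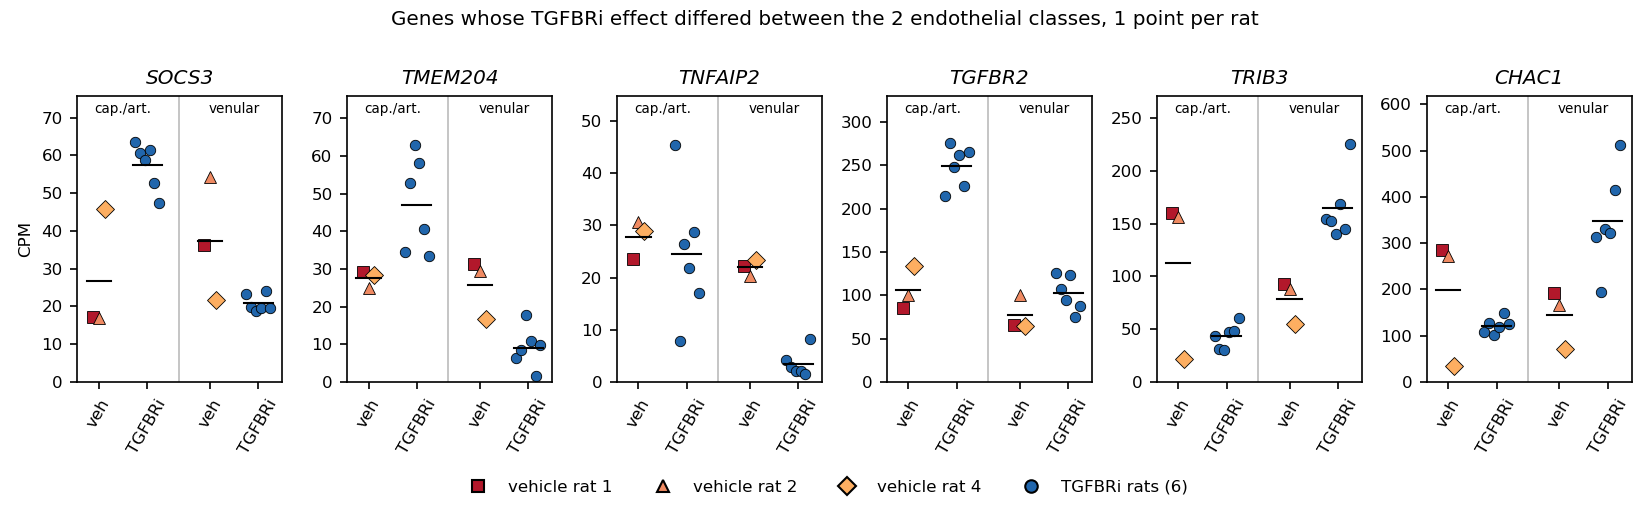
CPM of 6 genes in capillary and arterial (left of each panel) and venular endothelium (right), 1 point per rat with a line at the group mean. SOCS3 and TGFBR2 lie without overlap above the vehicle rats in TGFBRi rats among capillary and arterial cells. Among venular cells TGFBR2 overlaps and SOCS3 has the lower TGFBRi mean. TRIB3 and CHAC1 are high in vehicle rats 1 and 2 among capillary and arterial cells. Among venular cells every TGFBRi rat lies above the vehicle rats for both.

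Few differences of response were called between arterial-like and other members: the TGFBRi effect differed for 4 of 12567 genes (0.0318%), with 574 at an unadjusted p under 0.05. The arterial-like class held 37 to 210 cells per rat, and how small a difference could be detected was not tested. So few calls do not show that the responses were alike. ITM2A, a membrane protein of endothelium and lymphocytes, was at 161 to 200 CPM in arterial-like members of vehicle rats and 167 to 449 CPM in those of TGFBRi rats, against 178 to 229 and 81.7 to 271 CPM in other members, and its log2 fold change was higher in arterial-like cells by 0.99 ± 0.18 (adjusted p = 0.0228). It was not called with edgeR's own filter on low counts (adjusted p = 0.203) or with at least 3 arterial UMIs (adjusted p = 0.115). MADCAM1, FCNA and REG3G were at or near 0 in most rats of a class; the largest REG3G value, 419 CPM, came from TGFBRi rat 11 and the largest FCNA value, 132 CPM, from vehicle rat 4.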

How the data were processed

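Libraries of unsorted SD mammary gland from 3 vehicle and 6 TGFBRi rats were analysed. The authors deposited, per cell, raw UMI counts for 18237 genes, aligned to rn6; the submitters' processing notes name Cell Ranger 7.0.0 and Seurat 4.1.1. The least rich cell has 101 detected genes. Members and gene lists were chosen with earlier results of these data known. PECAM1 and ACKR1 were not used here, so 8 of the 10 rule genes applied, and these were kept out of the tests.

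Counts were summed per rat, since cells are not replicates. They were tested with edgeR 4.0.16 (R 4.3.3, quasi-likelihood, TMM, genes with at least 10 counts in all, Benjamini-Hochberg adjusted p of 0.1 or less), and with DESeq2 1.42.0 as an alternative. The edgeR fits were also run on simulated counts, in which all rats shared a common profile apart from the changes set. Those counts lack the differences among vehicle rats, so they do not show how the fits behave with them. The labels number the rats as separate animals. Differences of effect had rat as a block. Shares were compared by exact permutation tests. In all, 25 alternatives of the main fit were run. Scrublet (scanpy 1.11.5) marked 3.41% of cells in vehicle rat 1 and at most 0.02% elsewhere and so did not work; the 6% highest scores were left out instead as an alternative.

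Named genes were the 12 per direction with the largest fold change among called genes with at least 20 UMIs per rat on average and no overlap between groups (leaving out provisional names), called genes of the lists, the TGFβ receptors, SMAD7, ID1 and PMEPA1, and the 6 per direction with the largest difference of effect. Some genes that these rules name are not reported here.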

Additional observations from a re-analysis of the deposited data

Results flagged for a closer look

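Among the 6 TGFBRi rats, 10 of the 134 groups of values examined had a highest or lowest rat whose gap to its neighbour exceeded Dixon's 95% limit (0.625 of the range), where chance gives about 1 in 20. TGFBRi rat 2 was apart for GCLM (15.7 CPM, lowest), KRT7 (9.0 CPM, highest), EPAS1 (303.2 CPM, lowest) and MX1 (15.7 CPM, highest). TGFBRi rat 1, the rat with the fewest members, was highest for the neutrophil attractant CXCL1 (6349.9 CPM) and for TGFBR3 (226.8 CPM). TGFBRi rat 4 was highest for MGP (517.5 CPM) and ADM (134.4 CPM), rat 11 lowest for FLI1 (179.3 CPM) and rat 14 the one with MMP13 (1.4 CPM). For FLI1, ADM and TGFBR3 these rats still lay on the TGFBRi side of every vehicle rat.

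The TGFBRi effect differed between capillary and arterial and venular endothelium for the 6 genes with the largest differences in each direction and 5 other named genes (TGFBR2, CCN1, GDF15, P4HA1 and KLF6), as the signed log2 fold change in the former minus that in the latter. The sign gives the direction of the difference and not which class changed more. The difference was above 0 for REG3G (4.371), an antimicrobial lectin, CAR2 (2.487), a carbonic anhydrase, TNFAIP2 (2.368), the transcription factor TBX1 (2.326), TMEM204 (2.288), SOCS3 (2.229), the matrix protein CCN1 (0.998) and TGFBR2 (0.926). REG3G was above 100 CPM only in members of vehicle rat 2 (112) and TGFBRi rat 11 (230). The difference was below 0 for the fatty acid synthase FASN (-2.303), TRIB3 (-2.255), the claudin CLDN4 (-2.083), CHAC1 (-1.738), the chemokine CCL7 (-1.725), the complement factor CFD (-1.682), GDF15 (-1.176), the collagen-modifying enzyme P4HA1 (-0.835) and KLF6 (-0.621).

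Between arterial-like and other members the effect differed for FCNA (8.072), ITM2A (0.99), MADCAM1 (-5.596) and REG3G (-11.043), of which ITM2A was the one present in every rat of both classes.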

How the results depend on the processing

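The few members of TGFBRi rats 1 and 2 limit the depth of their sums, and the sums thinned to the smallest rat gave 1470 calls against 3120. Leaving out 1 rat gave 1441 to 4942 calls in members, 65 to 353 differences from venular cells, log2 share differences of -0.978 to -0.706 among all cells (exact permutation p = 0.0714 without any vehicle rat) and -7.734 to -2.395 points among blood endothelium (-6.941 and exact permutation p = 0.0357 without TGFBRi rat 2). Leaving out vehicle rats 1 and 2, chosen after seeing the data, gave 911 calls in members, 1224 in venular cells and 218 differences. Requiring 5 endothelial UMIs gave a share difference of -0.786 and CDH5 alone, chosen after seeing the data, -0.683 (exact permutation p = 0.0714 and 0.167); venular cells with 1 selectin UMI gave 64 differences. The arterial-like differences were 12 with 3 arterial UMIs and 2 with edgeR's own filter. Of the values of named genes under alternatives, 2741 kept direction and side of the threshold, 477 lost the call, 4 gained one and 19 reversed. The causes were not tested.

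These reversed without vehicle rats 1 and 2: BTNL9 (-0.047), KLF4 (-0.015), CCL2 (0.821), CSF3 (0.734), RT1-BA (0.864), RT1-DA (0.567), SLC2A1 (0.03), TGFBR1 (0.44), SMAD7 (-0.217) and ID1 (-0.397). ID1 was also below 0 without epithelial-marker members (-0.02), in all blood endothelium (-0.107), with 5 endothelial UMIs (-0.035), in thinned sums (-0.044) and without vehicle rat 1 or 2 (-0.077, -0.065). Leaving out 1 rat at a time, ID1 in members ran from -0.077 to 0.33, HSPH1 in members from -1.664 to 0.035 and ENG in members from -0.006 to 0.213, the last 2 reversing without vehicle rat 4. OCLN (0.047) reversed in thinned sums, the cycling share (-0.58) without thinning and the REG3G effect difference without vehicle rat 2 (-2.393, against up to 8.107).

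The rats' numbers 1, 2 and 4 occur in both groups. Deviations from the group means correlated at 0.087, -0.09 and 0.247 for same-numbered rats. Among TGFBRi rats 1, 2 and 4, vehicle rats 1 and 4 correlated best with their own number and vehicle rat 2 did not. The labels do not say that a number marks a shared litter, cage or day, and the rats were treated as unpaired. A fit with that number as a replicate block gave 1115 calls.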

Other observations

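Clock genes, listed after the values were seen, were higher in 5 of 15 tested (DBP, TEF, PER1, PER2 and PER3) and lower in none, with a median of 0.37. Without vehicle rat 4, 6 were higher and 1 lower, with a median of 0.08. Without vehicle rats 1 and 2 the median was 0.63. Outside blood endothelium the summed list was higher too, at 374, 325 and 315 CPM in vehicle rats and 442 to 513 CPM in TGFBRi rats. PER2 was at 6.2, 6.0 and 4.3 CPM in vehicle rats and at 14.5, 22.7 and 25.5 CPM at the lowest, median and highest of the TGFBRi rats, and the output gene PER3 was at 18.6, 17.4 and 18.7 CPM and at 27.7, 35.2 and 49 CPM. The time of day at which glands were taken is not given in the sources used here.

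Integrated stress response genes, also listed after the values were seen, were lower in 7 of 14 in members and none higher, with a median of -0.82. Without vehicle rat 4, 9 were lower and none higher, with a median of -1.31. Without vehicle rats 1 and 2, 2 of 13 were higher and 5 lower, with a median of 0.03. In venular cells 3 were higher and 5 lower. Iron storage and handling genes were higher in 2 and lower in 5 of 11, with a median of -0.68. The median was -0.49 without vehicle rats 1 and 2 and -0.51 without vehicle rat 4.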
